A study of Mus musculus with 11 samples.

Results

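The 52 genes described here make, fold, quality-control and ship secreted and membrane proteins in the endoplasmic reticulum (ER), and they were compared between germinal center B cells of p300-KO, CBP-KO and WT mice. They were listed by gene symbol, with earlier results of these data known but no measured value in the rule, and all 52 were found among the 48593 genes of the deposited table. By role they comprised 9 chaperones, 2 lectin chaperones, 6 disulfide isomerases, 9 factors of ER-associated degradation, 10 of targeting and the translocon, 4 of signal peptidase, 6 of the oligosaccharyltransferase, 4 of export and retrieval and 2 of immunoglobulin assembly.

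Nascent secretory proteins are brought to the ER by the signal recognition particle, threaded through the Sec61 translocon, cut by signal peptidase and given N-linked sugars by the oligosaccharyltransferase. Chaperones such as BiP and GRP94 and the protein disulfide isomerases then fold them, and proteins that fail are sent back to the cytosol for degradation, while folded cargo leaves in COPII vesicles. When unfolded proteins accumulate, sensors in the ER membrane start the unfolded protein response, in which the factors XBP1, ATF6 and ATF4 raise many of these genes. The antibody-secreting plasma cell, to which some germinal center B cells give rise, is known for a greatly enlarged ER.

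RNA came from germinal center B cells, which were sorted as B220, PNA and CD95 positive from the spleen of mice 12 days after sheep red blood cells were injected into the peritoneum. The p300-KO mice (3 libraries) were Ep300 fl/fl with Crebbp +/+, the CBP-KO mice (3 libraries) were Crebbp fl/fl with Ep300 +/+, and the WT mice (5 libraries) were +/+ at both genes. Crebbp and Ep300 encode the related lysine acetyltransferases CBP and p300. Mice of every group, WT included, carried Cg1cre/+, a Cre recombinase expressed from the immunoglobulin heavy chain γ1 locus that acts in B cells responding to antigen. The WT mice were labelled as littermates of Crebbp crosses, and none as a littermate of the p300-KO mice, so cross and loss of Ep300 cannot be told apart. Age, sex, litter and batch were not given. Nothing in the labels says whether each library was 1 mouse, so p-values measure the spread between these libraries. Values are listed below for p300-KO_18, _287 and _289, then CBP-KO_1, _53 and _55, then WT_4, _7, _41, _46 and _288, in that order. All are the authors' normalized read counts unless stated, n is 3, 3 and 5, and group values are mean ± SD.

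Depth ran from 53550726 to 132861266 reads per library. The targeted gene Ep300 had 14829, 14796 and 13773 in p300-KO, 22789, 25741 and 23271 in CBP-KO and 19310.3, 22238, 21460.3, 22498 and 20833 in WT, and every p300-KO library lay below all others (log2 fold change -0.55 ± 0.06 SE, adjusted p = 0.00015, against WT; exact two-sided permutation p = 0.0179, the smallest possible). Crebbp had 10073, 10952 and 10218 in p300-KO, 8595, 8606 and 7541 in CBP-KO and 8163, 9584, 9443, 9156 and 7984 in WT, and CBP-KO overlapped WT and was not called (exact two-sided permutation p = 0.268). Only floxed exons are removed by Cre, so counts over the whole gene do not check this label. The germinal center marker Bcl6 was high throughout, at 37014 to 42399 in p300-KO, 29307 to 41436 in CBP-KO and 29529 to 37523 in WT. The T cell markers Cd3e and Cd3g stayed at 10.2 or below. WT_46 stood apart at -57.7 on the first principal component (21.4% of the variance), against -28.3 to -11.3 in the other WT libraries. p300-KO_18 held both Xist (98751) and Y-linked transcripts (summed 9852) at high levels together, which no other library did. Counts are therefore also given without these libraries. With a 2-level covariate for these sex-linked transcripts, 13 members were higher and 1 lower in p300-KO against WT, 1 and 6 in CBP-KO against WT, and 21 and 1 in p300-KO against CBP-KO. The covariate was whether Xist exceeded the Y-linked sum, which placed p300-KO_18 with the libraries high in Xist only, although it held both.

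In p300-KO cells more of the ER genes were higher than lower against WT, led by the chaperone Hsp90b1 and the isomerases Pdia4 and Pdia6. Of 52 members, all of which passed the filter on low values, 13 rose, 1 fell and 38 did not pass the test, which was limma with an adjusted p below 0.05. Among all 16515 genes tested, 11.9% were called in either direction, 5.84% higher and 6.09% lower. The median log2 fold change was 0.13 over the members and -0.01 over all tested genes, and 41 of 52 members had a positive value. The calls were Hsp90b1, Pdia4, Pdia6, Kdelr1, Ssr4, Stt3a, Edem2, Sec61a1, Ssr2, Jchain, Sel1l, Dnajc3 and Hspa5 higher, and Txndc11 lower. Hsp90b1, Pdia4, Pdia6, Kdelr1 and Txndc11 kept their calls under all 24 alternative settings. The number of higher calls was 5 without p300-KO_18, 9 without WT_46 and 6 without both, and it was 7 without WT_7 or p300-KO_289 and 8 without WT_41 or WT_288.

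In CBP-KO cells more of the ER genes were called lower than higher against WT. Of the 52 members 1 rose (Edem3), 5 fell (Herpud1, Derl3, Pdia4, Pdia6 and Stt3b) and 46 did not pass the test against WT, where 8.36% of all tested genes were called, 3.48% higher and 4.88% lower. The median log2 fold change was -0.05 over the members, against 0.01 over all tested genes. Herpud1 and Derl3 kept their calls under all 24 settings. The number of lower calls was 2 without CBP-KO_53 or CBP-KO_55 and 3 without WT_41, and the only higher call was lost when either CBP-KO_53 or CBP-KO_55 was left out. Without WT_46 the counts were 1 higher and 5 lower.

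Set directly against CBP-KO, p300-KO had 19 members higher and 1 lower (Txndc11), with 32 not called. Among all tested genes 9.42% were called in this comparison, 4.63% higher and 4.79% lower. The median log2 fold change was 0.23 over the members and 0.00 over all tested genes. Pdia4, Hsp90b1, Pdia6, Ssr4, Manf, Herpud1 and Txndc11 kept their calls under all 24 settings. Higher calls numbered 7 without p300-KO_18, 20 without WT_46, 8 without both, 7 without CBP-KO_55, 9 without CBP-KO_53 and 12 without p300-KO_289. Lower calls numbered 2 without CBP-KO_1. The comparisons share libraries, so their counts are not independent of each other.

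As a share of all normalized counts the 52 genes took 0.992% to 1.04% in p300-KO, 0.832% to 0.872% in CBP-KO and 0.857% to 0.937% in WT libraries. On this measure the p300-KO range lay above both others, but a share also depends on the total of each library. The summed normalized counts of the members were 743861 to 786366 in p300-KO, 635295 to 665622 in CBP-KO and 662152 to 742969 in WT. By this sum the lowest p300-KO library lay only slightly above the highest WT library. The median over the members in each library, as log2 relative to the WT mean, did overlap between p300-KO and WT. It was 0.07 to 0.17 in p300-KO, -0.07 to -0.02 in CBP-KO and -0.04 to 0.11 in WT. Within WT the spread had its own pattern, since WT_4 was the highest WT library for 35 of the 52 members. In bulk RNA, fewer cells of a type and less RNA per cell cannot be told apart. Among markers of plasma cells, Sdc1 (syndecan-1) rose in p300-KO against WT, with 426, 332 and 274 in p300-KO, 183, 178 and 198 in CBP-KO and 109.5, 139.6, 137, 68.3 and 119 in WT (log2 fold change 1.60 ± 0.23 SE, adjusted p = 0.000886). The CBP-KO libraries also lay above every WT library (log2 fold change 0.74). Sdc1 was not called in CBP-KO against WT or between the knockouts. Prdm1, which encodes the plasma cell factor BLIMP1, had 1235, 1714 and 601 in p300-KO, 475, 150.5 and 262 in CBP-KO and 436, 503, 401, 868 and 495 in WT. It was called between the knockouts (log2 fold change 2.02, adjusted p = 0.0114) but not against WT in p300-KO (log2 fold change 1.06, adjusted p = 0.0934) or CBP-KO (log2 fold change -0.96, adjusted p = 0.149). Irf4, needed for plasma cell formation, had 4857, 4062 and 3484 in p300-KO, 2687, 2201 and 2108 in CBP-KO and 4279, 4327, 3737, 3314 and 3669 in WT and fell in CBP-KO against WT (log2 fold change -0.73, adjusted p = 0.0029). Tnfrsf17, a receptor of mature plasma cells, stayed at 10.2 or below in all 11 libraries, and Cav1 was at 0 in every one. Of the 13 plasma cell markers 10 were tested. Called higher and lower were 1 and 0 in p300-KO against WT, 1 and 1 in CBP-KO against WT and 2 and 2 in p300-KO against CBP-KO. In the same order, 11.9%, 8.36% and 9.42% of all tested genes were called, shares that also apply to the marker lists below. The other calls were Slamf7, higher in CBP-KO against WT (log2 fold change 0.26) and lower in p300-KO against CBP-KO (-0.44), Irf4, higher in p300-KO against CBP-KO (0.82), and Glcci1, lower there (-0.60). The summed level of the 13 markers was 39989 to 43751 in p300-KO, 43712 to 51352 in CBP-KO and 44526 to 48325 in WT. Slamf7 was the largest part of this sum (means of 18874, 25630 and 21397 in p300-KO, CBP-KO and WT). Sdc1, Prdm1 and Tnfrsf17 added little to it (means of 115, 541 and 2.15 in WT). The part of the plasma cell markers in the ER gene differences was not tested.

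The summed level of 12 macrophage and monocyte markers was 2419.6 to 3246 in p300-KO, 1972 to 2886 in CBP-KO and 3516 to 9361 in WT, where WT_46 was highest. In p300-KO and WT, Mpeg1 alone made up a large part of this sum. Of the 9 tested, 0 rose and 1 fell in p300-KO against WT (Mpeg1, at 1466 ± 179 in p300-KO and 3561 ± 1688 in WT), with a median log2 fold change of -0.22 and 4 of 9 positive. In the other comparisons 0 rose and 4 fell in CBP-KO against WT (Mpeg1, Adgre1, C1qb and C1qc), and 1 was higher in p300-KO than in CBP-KO (Adgre1). The list's median log2 fold change was -1.63 in CBP-KO against WT, with 0 of 9 positive. Between p300-KO and CBP-KO it was 1.74, with 8 of 9 positive. DESeq2 called 8 of the 9 in CBP-KO against WT and 5 between the knockouts. The defining markers C1qa and C1qb reached at most 49.9 and 108, both in WT_46, and Csf1r was at 305 to 435 in p300-KO, 326 to 418 in CBP-KO and 365 to 488 in WT. T cell markers summed to 263 to 321 in p300-KO, 174 to 256 in CBP-KO and 281 to 377 in WT, and naive B cell markers to 31799 to 39603 in p300-KO, 17969 to 27718 in CBP-KO and 19447 to 35730.3 in WT. Of the 12 germinal center markers, 2 rose and 2 fell in p300-KO against WT, among them S1pr2 (higher) and Fas and Rgs13 (lower), where edgeR called 1 of the 12. In CBP-KO against WT, 0 rose and 3 fell (Rgs13, Fas and Cd79a), and 2 were higher and 0 lower in p300-KO than in CBP-KO, Cd79a among those higher. Fas encodes CD95, on which the cells were sorted (log2 fold change -0.33 in p300-KO and -0.34 in CBP-KO against WT). The part of these lists in the ER gene differences was likewise not tested.

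**Figure D1:**
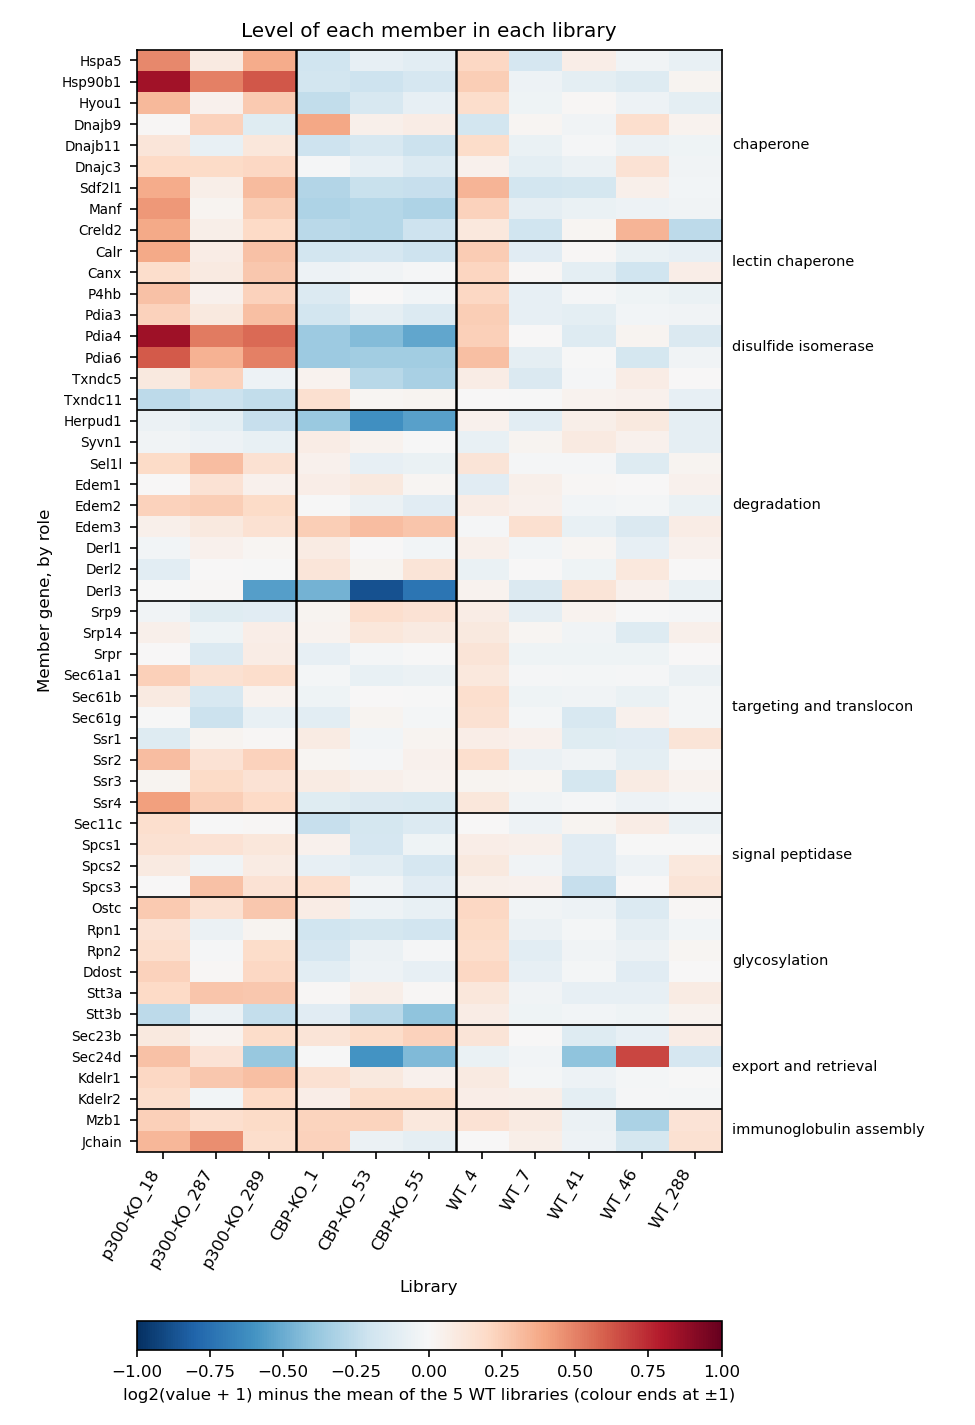
Level of each of the 52 genes (rows, grouped by role) in each of the 11 libraries (columns), as log2(normalized count + 1) minus the mean of the 5 WT libraries, with red above and blue below. Hsp90b1, Pdia4 and Pdia6 are red in all 3 p300-KO libraries, Herpud1 and Derl3 are blue in all 3 CBP-KO libraries, and WT_4 is the highest WT library for 35 of 52 genes.

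Promoter windows of the members were searched for elements that are known to control such genes. The RefSeq windows (GRCm38.p6, 250 bases before to 50 after each gene's start) matched 42 of the 52 members by symbol, and those of Derl1, Hyou1, Kdelr2, Manf, Mzb1, Ostc, Sec11c, Sec61a1, Spcs3 and Ssr2 were not used here. Both strands of the first listed window of each gene were searched for 4 exact motifs, and any further window of a gene was not. The ER stress element ERSE (CCAAT and CCACG with 9 bases between them), bound by NF-Y with ATF6 or XBP1, was in 9 of 42 member windows (21.4%) and in 35 of all 27025 windows (0.13%). ERSE-II (ATTGG and CCACG with 1 base between them) was in 2 (4.76%), against 10 of all (0.037%). The core of the unfolded protein response element, TGACGTG, was in 4 (9.52%), against 537 of all (1.99%). The cAMP response element TGACGTCA, bound by CREB, which is known to recruit CBP and p300, was in 0 of 42, against 507 of all (1.88%). The CCACG of ERSE can overlap TGACGTG, but no such overlap occurred among the members.

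The 6 windows below belong to the members with the smallest p between p300-KO and CBP-KO that held a motif on a chromosome shown here, printed 5′ to 3′ along the gene with the matched motif letters in capitals. They are Hsp90b1 at chr10:86705395-86705694 on the minus strand (ERSE on the plus strand of the gene at -212 to -194 and on the other strand at -107 to -89, counted from the gene start), Pdia6 at chr12:17266339-17266638 on the plus strand (ERSE, -98 to -80), Txndc11 at chr16:11134483-11134782 on the minus strand (2 cores, -102 to -96 and -51 to -45), Herpud1 at chr8:94386179-94386478 on the plus strand (ERSE-II, -52 to -42), Calr at chr8:84846882-84847181 on the minus strand (ERSE on the other strand, -162 to -144) and Hspa5 at chr2:34771840-34772139 on the plus strand (core at -157 to -151 and ERSE at -65 to -47).
Hsp90b1: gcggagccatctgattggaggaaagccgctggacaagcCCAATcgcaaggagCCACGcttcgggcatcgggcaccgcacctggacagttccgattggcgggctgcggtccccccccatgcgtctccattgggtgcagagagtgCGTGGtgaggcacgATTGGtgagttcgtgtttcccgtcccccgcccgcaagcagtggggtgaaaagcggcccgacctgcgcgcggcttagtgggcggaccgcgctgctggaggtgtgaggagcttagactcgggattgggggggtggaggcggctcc
Pdia6: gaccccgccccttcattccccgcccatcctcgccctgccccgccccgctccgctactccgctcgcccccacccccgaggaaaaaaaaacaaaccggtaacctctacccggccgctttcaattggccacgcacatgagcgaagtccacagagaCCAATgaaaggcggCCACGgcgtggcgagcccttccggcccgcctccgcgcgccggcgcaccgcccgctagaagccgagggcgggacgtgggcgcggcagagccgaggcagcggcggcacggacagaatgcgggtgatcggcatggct
Txndc11: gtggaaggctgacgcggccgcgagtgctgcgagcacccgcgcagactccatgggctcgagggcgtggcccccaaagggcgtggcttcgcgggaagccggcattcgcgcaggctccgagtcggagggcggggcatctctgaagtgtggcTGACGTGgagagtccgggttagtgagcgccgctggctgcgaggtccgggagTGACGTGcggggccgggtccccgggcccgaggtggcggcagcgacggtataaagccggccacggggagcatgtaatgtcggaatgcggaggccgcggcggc
Herpud1: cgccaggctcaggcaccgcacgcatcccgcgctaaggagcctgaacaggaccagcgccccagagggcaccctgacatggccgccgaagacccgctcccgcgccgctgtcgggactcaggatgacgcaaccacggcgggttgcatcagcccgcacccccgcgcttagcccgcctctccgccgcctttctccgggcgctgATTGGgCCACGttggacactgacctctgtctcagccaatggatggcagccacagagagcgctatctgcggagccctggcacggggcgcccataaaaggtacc
Calr: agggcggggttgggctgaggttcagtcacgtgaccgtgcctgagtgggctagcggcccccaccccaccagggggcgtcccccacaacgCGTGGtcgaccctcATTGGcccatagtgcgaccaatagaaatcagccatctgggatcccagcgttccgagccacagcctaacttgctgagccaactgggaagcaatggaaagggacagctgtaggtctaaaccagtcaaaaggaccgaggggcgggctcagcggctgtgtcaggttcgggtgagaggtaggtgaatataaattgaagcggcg
Hspa5: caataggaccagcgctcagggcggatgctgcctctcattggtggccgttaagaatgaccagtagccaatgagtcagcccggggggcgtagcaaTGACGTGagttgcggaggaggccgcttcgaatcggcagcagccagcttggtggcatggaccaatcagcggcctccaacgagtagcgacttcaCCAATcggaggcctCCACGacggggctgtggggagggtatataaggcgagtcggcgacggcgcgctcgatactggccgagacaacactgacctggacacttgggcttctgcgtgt

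These windows were picked because they held a motif, so their matches say nothing of the other members. Of the 15 members higher in p300-KO than in CBP-KO that had a window, 7 held none of the 4 motifs: Pdia4, Ssr4, Edem2, Pdia3, Sdf2l1, Sel1l and Stt3a. Over the member windows searched, ERSE or ERSE-II was present in 11 members: Calr, Canx, Creld2, Derl3, Dnajb11, Dnajc3, Herpud1, Hsp90b1, Hspa5, Pdia6 and Syvn1. Between p300-KO and CBP-KO, 8 of these 11 were called higher and 0 lower (median log2 fold change 0.43), against 7 higher and 1 lower of the 31 with neither element (median 0.17). Against WT, p300-KO had 4 higher and 0 lower of the 11 (median 0.20), and 7 higher and 1 lower of the 31 (median 0.10). CBP-KO had 0 higher and 3 lower of the 11 (median -0.19), and 1 higher and 2 lower of the 31 (median -0.03). Among all tested genes, 9.42% were called between the knockouts, 11.9% in p300-KO against WT and 8.36% in CBP-KO against WT. Pdia4, the member with the largest difference between the knockouts, had none of the 4 motifs in its window. The 11 members with ERSE or ERSE-II were all chaperones, lectin chaperones, degradation factors or the isomerase Pdia6. Chaperones as a role had a median log2 fold change of 0.45 between the knockouts, and element and role were not separated. A match is a string of letters and was not tested as a binding site.

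**Figure D2:**
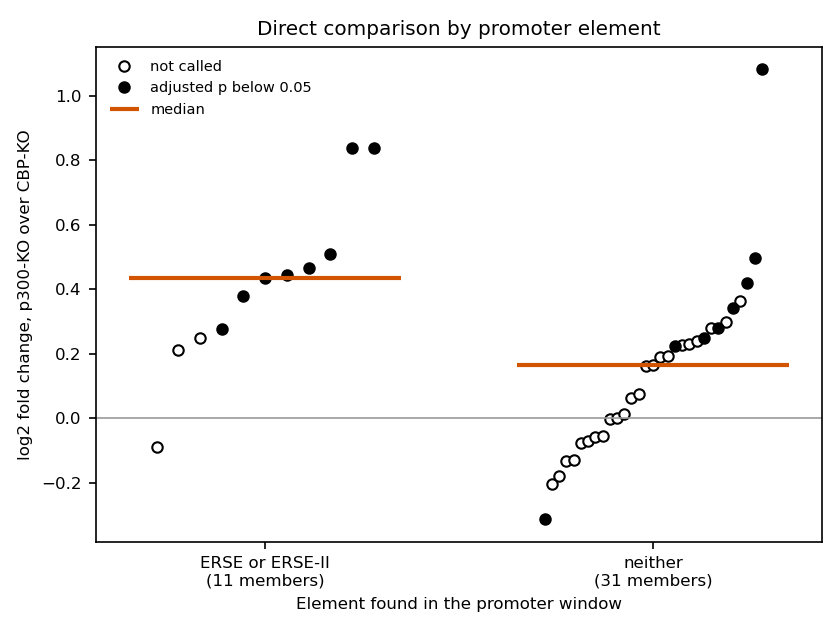
Log2 fold change of p300-KO over CBP-KO (y axis) for the 42 members with a promoter window, as 1 point per gene, ordered by value within the 11 that held ERSE or ERSE-II and the 31 that held neither; filled points were called and orange lines are medians. The medians are 0.43 and 0.17, and the point at 1.08 among those with neither element is Pdia4. Element and gene role were not separated.

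For all counts by role below, the shares of all tested genes called were 11.9% in p300-KO against WT and 8.36% in CBP-KO against WT. Between p300-KO and CBP-KO the share was 9.42%. Among the chaperones, 7 of 9 were higher in p300-KO than in CBP-KO (median log2 fold change 0.45). Against WT, 3 of 9 rose in p300-KO (Hsp90b1, Hspa5 and Dnajc3) and 0 fell (median log2 fold change 0.21), while in CBP-KO 0 of the 9 were called (median -0.19, by limma, with 3 at an unadjusted p below 0.05, 0 called by edgeR and 1 by DESeq2). The summed level of the 9 was 115706 to 143751 in p300-KO, 89438 to 92359 in CBP-KO and 94903 to 117104 in WT. Hsp90b1 (GRP94, the ER member of the HSP90 family, chromosome 10, 86690209 to 86705509, minus strand) had 41769, 33062 and 35870.2 in p300-KO, 20551, 20249 and 20806 in CBP-KO and 27765, 22600.1, 21777, 21320.5 and 23826 in WT. All p300-KO libraries lay above every other, and CBP-KO lay below WT without overlap. Hsp90b1 averaged 36900.4 ± 4444 in p300-KO, 20536 ± 279 in CBP-KO and 23458 ± 2589 in WT, with log2 fold change 0.65 ± 0.09 SE, adjusted p = 0.000632 in p300-KO against WT and log2 fold change 0.84 ± 0.10 SE, adjusted p = 0.000306 against CBP-KO. The difference of CBP-KO from WT was not called (log2 fold change -0.19, adjusted p = 0.237). Among libraries with Y-linked transcripts and little Xist, Hsp90b1 was at 33062 in p300-KO_287, 20551 in CBP-KO_1, and 21777 and 23826 in WT_41 and WT_288.

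Hspa5 (BiP, the HSP70 of the ER, which also holds the stress sensors inactive, chromosome 2, 34771970 to 34777547, plus strand) had 50839, 38732 and 47076 in p300-KO, 31591, 34369 and 33786 in CBP-KO and 42071, 32388, 37961, 35541 and 34524 in WT. The p300-KO and WT libraries overlapped, since p300-KO_287 lay below WT_4, whereas all p300-KO libraries lay above all CBP-KO libraries. The gene rose in p300-KO against WT (log2 fold change 0.32 ± 0.09 SE, adjusted p = 0.0449) and was higher than in CBP-KO (log2 fold change 0.45 ± 0.10 SE, adjusted p = 0.0189). CBP-KO was not called against WT (log2 fold change -0.13, adjusted p = 0.464). The call against WT was lost without any 1 of p300-KO_18, p300-KO_289, CBP-KO_1, CBP-KO_53, CBP-KO_55, WT_7, WT_41, WT_46 or WT_288 (adjusted p of 0.0517 to 0.186). The call between the knockouts was lost without any 1 of p300-KO_18, p300-KO_289, CBP-KO_1 or CBP-KO_55 (adjusted p of 0.0561 to 0.0808). Hyou1 (GRP170, a nucleotide exchange factor of BiP, chromosome 9, 44379490 to 44392369, plus strand) had 15006, 12386 and 14369 in p300-KO, 10122, 10740.4 and 11346 in CBP-KO and 13529, 11646, 12109.6, 11604 and 11200.3 in WT, and its p300-KO and CBP-KO libraries did not overlap. It was higher in p300-KO than in CBP-KO (log2 fold change 0.37, adjusted p = 0.0159), a call lost without any 1 of p300-KO_18, p300-KO_289, CBP-KO_1 or CBP-KO_53 (adjusted p of 0.0512 to 0.0696). Neither knockout was called against WT for Hyou1 (log2 fold changes 0.21 in p300-KO and -0.16 in CBP-KO).

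Manf, a small stress-induced ER protein that binds BiP (chromosome 9, 106838312 to 106891979, minus strand), had 7319.5, 5541 and 6455 in p300-KO, 4390.2, 4450.0 and 4397 in CBP-KO and 6380.1, 5118, 5195, 5258 and 5307 in WT. CBP-KO lay below all WT and p300-KO libraries, and p300-KO overlapped WT, since p300-KO_287 lay below WT_4. Manf was called between the knockouts (log2 fold change 0.54 ± 0.10 SE, adjusted p = 0.00563) but against WT neither in p300-KO (log2 fold change 0.24, adjusted p = 0.111) nor in CBP-KO (log2 fold change -0.30, adjusted p = 0.058). Sdf2l1, a partner of BiP complexes, and Creld2, a stress-induced ER protein, were likewise higher in p300-KO than in CBP-KO (log2 fold change 0.50, adjusted p = 0.0261 and log2 fold change 0.47, adjusted p = 0.0453). Those calls were lost for Sdf2l1 without any 1 of p300-KO_18, p300-KO_289, CBP-KO_1, CBP-KO_53 or CBP-KO_55 (adjusted p of 0.0661 to 0.0981) and for Creld2 without any 1 of p300-KO_18, p300-KO_287, p300-KO_289, CBP-KO_1, CBP-KO_53, CBP-KO_55, WT_4 or WT_41 (adjusted p of 0.0531 to 0.154). Of the BiP co-chaperones of the J-domain family, Dnajc3 rose in p300-KO against WT (log2 fold change 0.20, adjusted p = 0.0424) and was higher than in CBP-KO (log2 fold change 0.28, adjusted p = 0.0189), and the 2 calls were lost without any 1 of p300-KO_18, p300-KO_287, p300-KO_289, CBP-KO_53, CBP-KO_55, WT_4, WT_7, WT_41 or WT_288 (adjusted p of 0.0503 to 0.121) and without any 1 of p300-KO_18, p300-KO_289, CBP-KO_53 or CBP-KO_55 (adjusted p of 0.0517 to 0.0816). Dnajb11 and Dnajb9 were called in no comparison, with log2 fold changes of 0.25 and -0.13 in p300-KO against CBP-KO.

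Of the lectin chaperones, which hold glycoproteins by their sugars, Calr (calreticulin, chromosome 8, 84841850 to 84846934, minus strand) had 52202, 42205 and 49211 in p300-KO, 35440.5, 35754 and 34725 in CBP-KO and 47883, 37248, 40468, 38319.6 and 37916 in WT. CBP-KO lay below every WT and p300-KO library, and p300-KO overlapped WT. Calr was higher in p300-KO than in CBP-KO (log2 fold change 0.43, adjusted p = 0.014), a call lost without either p300-KO_18 or CBP-KO_55 (adjusted p of 0.0546 to 0.0631), and was not called against WT in p300-KO (log2 fold change 0.25, adjusted p = 0.0815) or CBP-KO (log2 fold change -0.19, adjusted p = 0.216). Canx (calnexin), its membrane-bound relative, was called in none of the 3 comparisons (log2 fold change 0.21 in p300-KO against CBP-KO).

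**Figure D3:**
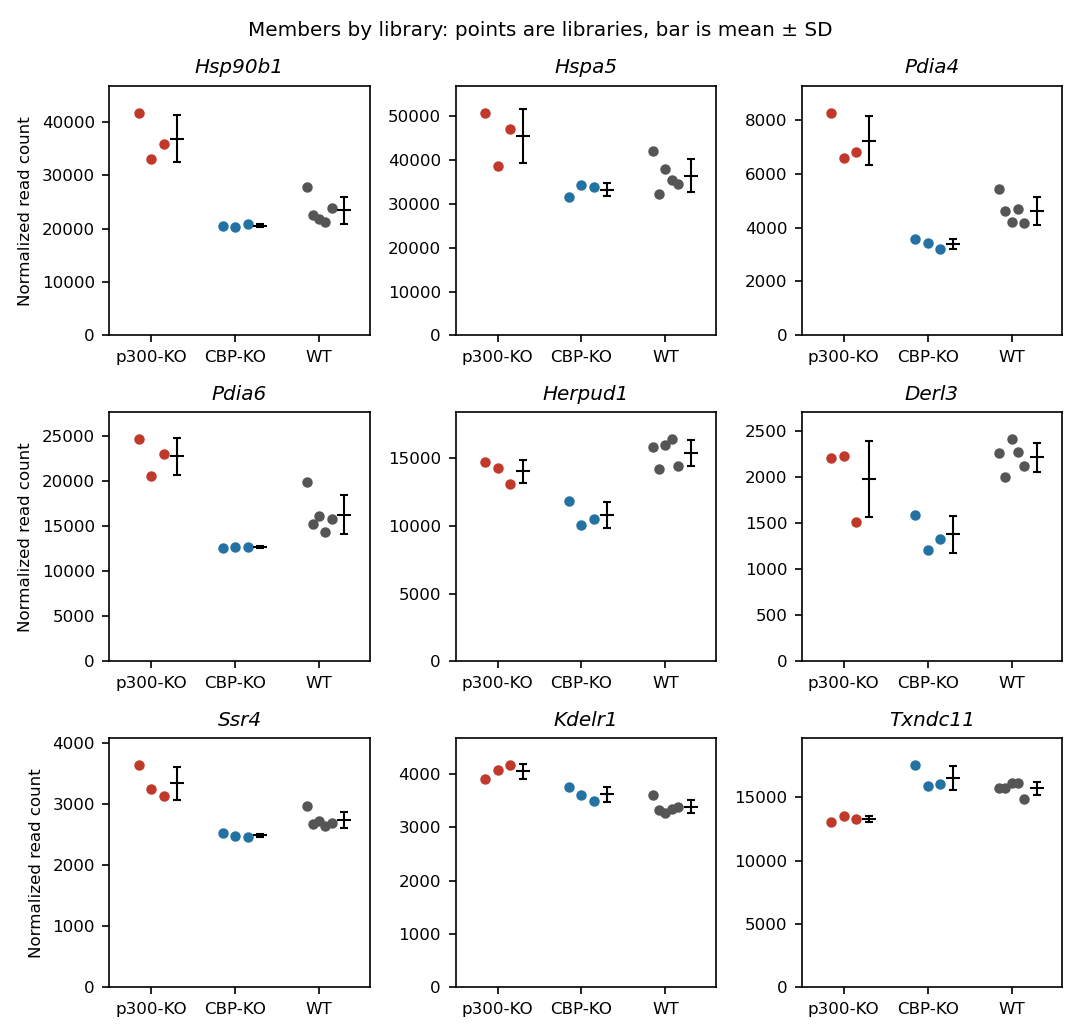
Normalized read counts (y axis, from 0) of 9 members in p300-KO, CBP-KO and WT libraries; each point is a library and the bar is mean ± SD (n = 3, 3 and 5). The p300-KO points of Hsp90b1, Pdia4, Pdia6, Ssr4 and Kdelr1 lie above all others, those of Txndc11 lie below all others, and the CBP-KO points of Herpud1 and Pdia6 lie below all others.

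The disulfide isomerases, which form and rearrange disulfide bonds, held both members that were called in opposite directions against WT in the 2 knockouts, Pdia4 and Pdia6. In p300-KO 2 of 6 rose and 1 fell against WT, in CBP-KO 0 rose and 2 fell, and between p300-KO and CBP-KO 3 were higher and 1 lower. Pdia4 (ERp72, chromosome 6, 47796141 to 47813430, minus strand) had 8257, 6595 and 6803 in p300-KO, 3571, 3409 and 3209.8 in CBP-KO and 5431, 4609, 4195, 4677 and 4162 in WT. The 3 groups did not overlap, with p300-KO highest and CBP-KO lowest. Pdia4 rose in p300-KO (log2 fold change 0.64 ± 0.09 SE, adjusted p = 0.00106) and fell in CBP-KO (log2 fold change -0.44 ± 0.09 SE, adjusted p = 0.0131) against WT. The direct difference was the largest of any member (log2 fold change 1.08 ± 0.11 SE, adjusted p = 8.67e-05, 95% interval 0.85 to 1.31). The fall in CBP-KO was not called without either CBP-KO_53 or CBP-KO_55 (adjusted p of 0.0538 to 0.0714).

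Pdia6 (P5, an isomerase that works with BiP, chromosome 12, 17266545 to 17284770, plus strand) showed the same order, with 24669.5, 20574 and 22956 in p300-KO, 12589, 12715 and 12699.5 in CBP-KO and 19884, 15205, 16104, 14345 and 15791 in WT. Its groups did not overlap either. Pdia6 rose in p300-KO against WT (log2 fold change 0.49 ± 0.09 SE, adjusted p = 0.00454), fell in CBP-KO against WT (log2 fold change -0.35 ± 0.09 SE, adjusted p = 0.0312) and was higher in p300-KO than in CBP-KO (log2 fold change 0.84 ± 0.10 SE, adjusted p = 0.000363). The CBP-KO call was lost without any 1 of CBP-KO_1, CBP-KO_53, CBP-KO_55 or WT_41 (adjusted p of 0.0601 to 0.103). Txndc11, a thioredoxin-domain protein of the ER membrane (chromosome 16, 11074911 to 11134650, minus strand), had 13083, 13493 and 13251 in p300-KO, 17561, 15906 and 16032 in CBP-KO and 15712, 15688, 16093, 16151 and 14848 in WT. Every p300-KO library lay below every other library. It was the only member called lower in p300-KO, against both WT (log2 fold change -0.24 ± 0.05 SE, adjusted p = 0.00689) and CBP-KO (log2 fold change -0.31 ± 0.05 SE, adjusted p = 0.00386), and CBP-KO was not called against WT (log2 fold change 0.07, adjusted p = 0.438). Pdia3 (ERp57, the partner of calnexin and calreticulin) was higher in p300-KO than in CBP-KO (log2 fold change 0.34, adjusted p = 0.0247), a call lost without any 1 of p300-KO_18, p300-KO_289, CBP-KO_1, CBP-KO_53 or CBP-KO_55 (adjusted p of 0.0561 to 0.0803). P4hb and Txndc5 were called in no comparison, with log2 fold changes of 0.24 and 0.28 in p300-KO against CBP-KO.

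Factors of ER-associated degradation held the calls of CBP-KO that survived every setting. In CBP-KO 1 of 9 rose and 2 fell against WT, and in p300-KO 2 rose and 0 fell. Between p300-KO and CBP-KO 4 were higher. Herpud1, a scaffold of the HRD1 ubiquitin ligase complex (chromosome 8, 94386438 to 94395377, plus strand), had 14727, 14283 and 13089.5 in p300-KO, 11839.7, 10033 and 10507 in CBP-KO and 15785, 14208, 15929, 16414 and 14408 in WT. The CBP-KO libraries lay below all WT and p300-KO libraries, and p300-KO overlapped WT. Herpud1 averaged 10793 ± 937 in CBP-KO and 15349 ± 981 in WT (log2 fold change -0.51 ± 0.07 SE, adjusted p = 0.000925), and it was higher in p300-KO than in CBP-KO (log2 fold change 0.38 ± 0.08 SE, adjusted p = 0.00937). Between p300-KO and WT it was not called (log2 fold change -0.13, adjusted p = 0.269). Derl3, a derlin of the channel that moves proteins back to the cytosol (chromosome 10, 75893413 to 75895941, plus strand), had 2205, 2229 and 1509.8 in p300-KO, 1594, 1211 and 1329 in CBP-KO and 2266, 2005, 2417, 2273 and 2116 in WT. CBP-KO lay below all WT libraries, while p300-KO was split, with p300-KO_289 below CBP-KO_1. The fall of Derl3 in CBP-KO against WT was the largest in the set (log2 fold change -0.69 ± 0.13 SE, adjusted p = 0.00589). The higher level in p300-KO than in CBP-KO (log2 fold change 0.51, adjusted p = 0.0427) was lost without any 1 of p300-KO_18, p300-KO_287, CBP-KO_53, CBP-KO_55, WT_4, WT_7, WT_41 or WT_288 (adjusted p of 0.052 to 0.15). p300-KO was not called against WT (log2 fold change -0.18, adjusted p = 0.416).

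Edem2, which trims mannose from misfolded glycoproteins (chromosome 2, 155701677 to 155729475, minus strand), had 3970.4, 4014 and 3878 in p300-KO, 3379, 3246 and 3137 in CBP-KO and 3566, 3487, 3321, 3346 and 3233 in WT. All p300-KO libraries lay above the rest. Edem2 rose in p300-KO against WT (log2 fold change 0.22, adjusted p = 0.0155; call lost without either p300-KO_18 or p300-KO_287, adjusted p of 0.0548 to 0.055) and was higher than in CBP-KO (log2 fold change 0.28, adjusted p = 0.0102; lost without CBP-KO_55, adjusted p = 0.0508). Its relative Edem3 (chromosome 1, 151755371 to 151822051, plus strand) had 6641, 6875 and 7114 in p300-KO, 7594, 7951 and 7779 in CBP-KO and 6363, 7149, 6088, 5802 and 6744 in WT. The CBP-KO libraries were highest. Edem3 was the only member that rose in CBP-KO against WT (log2 fold change 0.28, adjusted p = 0.0195), a call lost without either CBP-KO_53 or CBP-KO_55 (adjusted p of 0.0735 to 0.0929), and it was not called in p300-KO against WT (log2 fold change 0.10, adjusted p = 0.367) or CBP-KO (log2 fold change -0.18, adjusted p = 0.149).

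Sel1l, the adaptor of the HRD1 ligase (chromosome 12, 91806043 to 91849157, minus strand), had 14798, 16021 and 14383 in p300-KO, 13381, 12274 and 12387 in CBP-KO and 14162, 12844, 12824, 11832 and 13241 in WT. The p300-KO libraries lay above all others. Sel1l rose in p300-KO against WT (log2 fold change 0.22, adjusted p = 0.0395; lost without any 1 of p300-KO_18, p300-KO_287, p300-KO_289, CBP-KO_53, CBP-KO_55, WT_7, WT_41, WT_46 or WT_288, adjusted p of 0.0518 to 0.157) and was higher than in CBP-KO (log2 fold change 0.25, adjusted p = 0.0413; lost without any 1 of p300-KO_18, p300-KO_287, CBP-KO_53, CBP-KO_55, WT_7, WT_41 or WT_288, adjusted p of 0.0541 to 0.136). Syvn1, which encodes the HRD1 ligase itself, and Edem1, Derl1 and Derl2 were called in no comparison, and their log2 fold changes in p300-KO against CBP-KO lay between -0.13 and 0.00.

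Targeting and translocon genes changed in 3 of 10 members in p300-KO against WT, all higher, and in 0 in CBP-KO (limma, with 1 at an unadjusted p below 0.05, 0 called by edgeR and 0 by DESeq2). Between p300-KO and CBP-KO 2 were higher. Sec61a1, the pore-forming subunit of the translocon (chromosome 6, 88503579 to 88518905, minus strand), had 13968, 13183 and 13359.5 in p300-KO, 11669.5, 11257 and 11401 in CBP-KO and 12779.8, 11733, 11682, 11757 and 11385 in WT. All p300-KO libraries lay above the rest. It rose against WT (log2 fold change 0.19, adjusted p = 0.0241; lost without any 1 of p300-KO_18, p300-KO_289, WT_7 or WT_288, adjusted p of 0.0514 to 0.101) and was higher than in CBP-KO (log2 fold change 0.24, adjusted p = 0.0157; lost without any 1 of p300-KO_18, CBP-KO_53 or CBP-KO_55, adjusted p of 0.0561 to 0.0663). The other subunits, Sec61b and Sec61g, were called in no comparison, with log2 fold changes of -0.01 and -0.10 in p300-KO against WT.

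The translocon-associated protein complex helps some signal sequences open the channel, and 2 of its 4 subunits were called in p300-KO against WT. Ssr4, its δ subunit (chromosome X, 73787028 to 73790830, plus strand), had 3647, 3242 and 3139 in p300-KO, 2525, 2481 and 2469.6 in CBP-KO and 2971, 2679.6, 2724, 2643 and 2691 in WT. The 3 groups did not overlap, with p300-KO highest and CBP-KO lowest. Ssr4 rose in p300-KO against WT (log2 fold change 0.28 ± 0.06 SE, adjusted p = 0.0113; lost without p300-KO_18, adjusted p = 0.0615) and was higher than in CBP-KO (log2 fold change 0.42 ± 0.07 SE, adjusted p = 0.00302), while CBP-KO was not called against WT (log2 fold change -0.14, adjusted p = 0.219). Ssr2, the β subunit (chromosome 3, 88575876 to 88588419, plus strand), had 6511, 5815 and 6171 in p300-KO, 5329, 5229 and 5423 in CBP-KO and 5923, 5052, 5148, 4929 and 5312 in WT. Its p300-KO and WT libraries overlapped. The rise against WT (log2 fold change 0.23, adjusted p = 0.0359) was lost without any 1 of p300-KO_18, p300-KO_289, CBP-KO_53, WT_7, WT_41, WT_46 or WT_288 (adjusted p of 0.0529 to 0.145). Ssr1 and Ssr3, the other subunits, and the targeting factors Srp9, Srp14 and Srpr were called in no comparison, with log2 fold changes in p300-KO against WT between -0.09 and 0.12.

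Signal peptidase removes the signal sequence once a protein has entered the ER. Of its 4 members 0 were called in p300-KO against WT (limma, with 1 at an unadjusted p below 0.05, 0 called by edgeR and 0 by DESeq2), with log2 fold changes of 0.05 to 0.15. In CBP-KO against WT 0 were called as well (limma, with 1 at an unadjusted p below 0.05, 0 called by edgeR and 1 by DESeq2), with log2 fold changes of -0.18 to 0.01. Sec11c, a catalytic subunit, was higher in p300-KO than in CBP-KO (log2 fold change 0.24, adjusted p = 0.0296), a call lost without any 1 of p300-KO_18, CBP-KO_1, CBP-KO_53 or CBP-KO_55 (adjusted p of 0.061 to 0.112). Spcs1, Spcs2 and Spcs3 were not called there (log2 fold changes 0.19, 0.17 and 0.14).

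The oligosaccharyltransferase has alternative catalytic subunits, and each was called in 1 of the knockouts against WT. Stt3a, which glycosylates proteins as they pass the translocon (chromosome 9, 36729344 to 36767679, minus strand), had 10126, 10689.5 and 10632 in p300-KO, 8872, 9172 and 8884 in CBP-KO and 9528, 8600.1, 8346, 8317 and 9346 in WT. The p300-KO libraries were above all others. Stt3a rose in p300-KO against WT (log2 fold change 0.25, adjusted p = 0.0121; lost without p300-KO_289, adjusted p = 0.0535) and was higher than in CBP-KO (log2 fold change 0.22, adjusted p = 0.0421; lost without any 1 of p300-KO_18, p300-KO_287, p300-KO_289, CBP-KO_1, CBP-KO_53, CBP-KO_55 or WT_7, adjusted p of 0.059 to 0.123). CBP-KO was not called against WT (log2 fold change 0.03, adjusted p = 0.84). Stt3b, which can act after translocation on sites that were skipped (chromosome 9, 115242581 to 115310421, minus strand), had 30837, 35472 and 31359 in p300-KO, 34165, 30696 and 28017 in CBP-KO and 39038, 35949, 36383, 35909 and 37842 in WT. Both knockouts lay below all WT libraries. Only the fall in CBP-KO was called (log2 fold change -0.26, adjusted p = 0.0316; lost without any 1 of CBP-KO_53, CBP-KO_55, WT_4, WT_41 or WT_288, adjusted p of 0.0558 to 0.167), with log2 fold change -0.19, adjusted p = 0.096 in p300-KO against WT and log2 fold change 0.07, adjusted p = 0.599 between the knockouts. The remaining subunits, Ostc, Rpn1, Rpn2 and Ddost, were called in no comparison, with log2 fold changes in p300-KO against CBP-KO between 0.19 and 0.24.

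**Figure D4:**
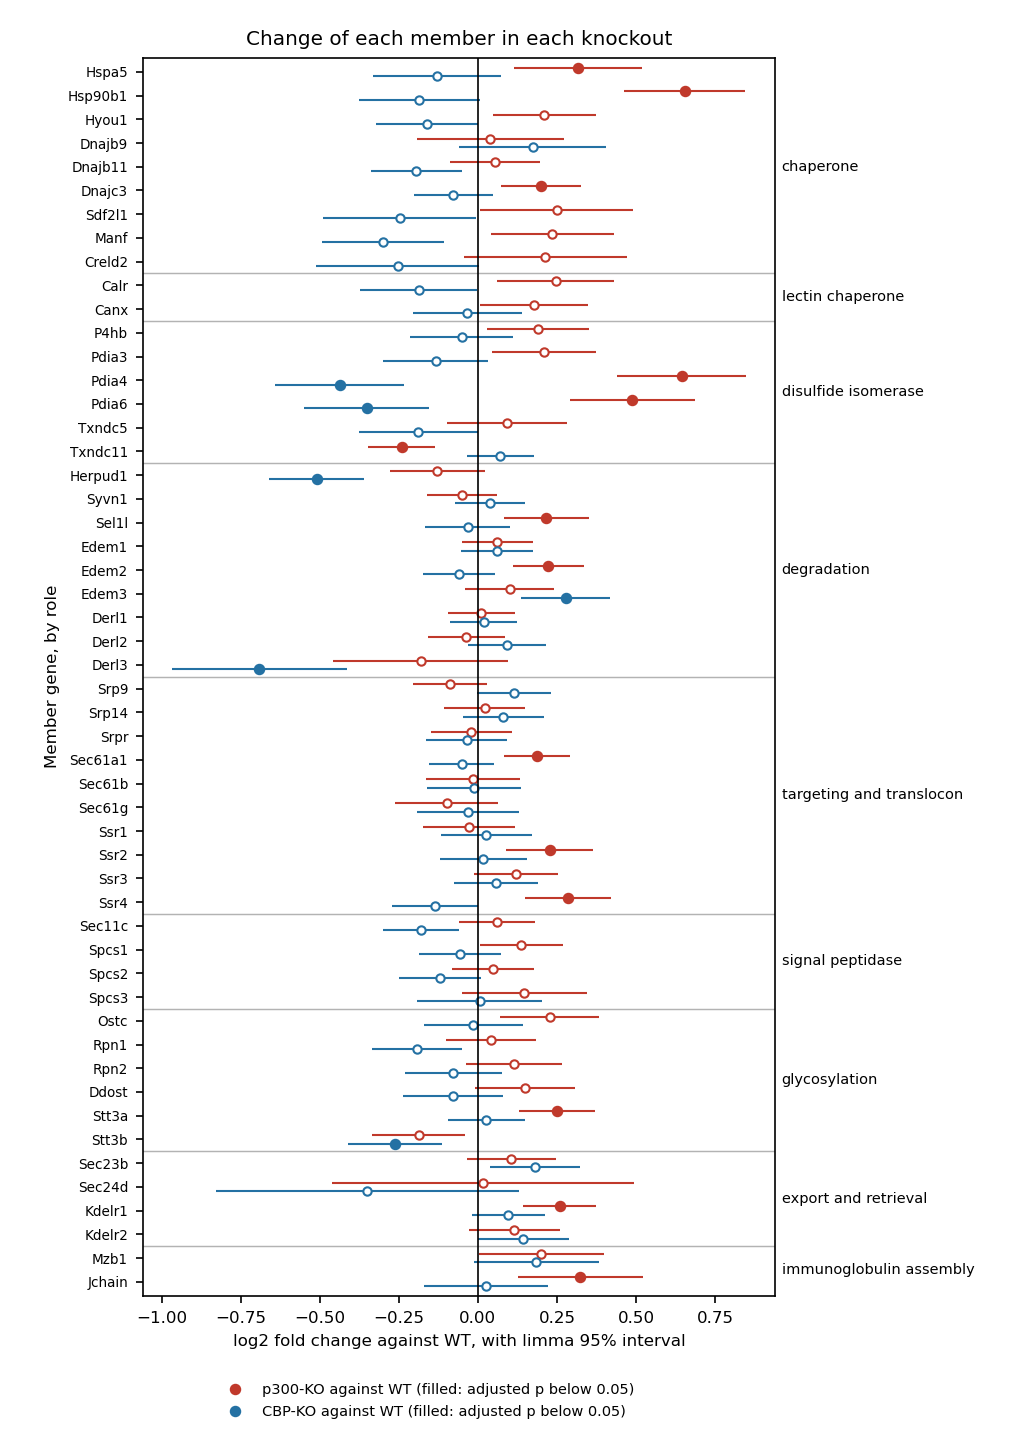
Log2 fold change against WT (x axis, with limma 95% interval) of each member (rows, by role) in p300-KO (red) and CBP-KO (blue); filled points had an adjusted p below 0.05. Red is filled to the right for 13 members and to the left for Txndc11, and blue is filled to the left for 5 and to the right for Edem3; both colours share the same 5 WT libraries.

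Of the export and retrieval genes, Kdelr1, a receptor that returns escaped ER proteins from the Golgi (chromosome 7, 45872772 to 45883732, plus strand), had 3893, 4076 and 4169 in p300-KO, 3755, 3611 and 3483 in CBP-KO and 3598, 3327, 3269, 3340.5 and 3379.8 in WT. All p300-KO libraries lay above the rest. Kdelr1 rose in p300-KO against WT (log2 fold change 0.26 ± 0.05 SE, adjusted p = 0.00744), while CBP-KO was not called against WT (log2 fold change 0.10, adjusted p = 0.313), nor was p300-KO against CBP-KO (log2 fold change 0.16, adjusted p = 0.107). Kdelr2 and the COPII coat genes Sec23b and Sec24d were called in no comparison. Sec24d varied widely within groups, with 1251, 1122 and 786 in p300-KO, 1017, 675 and 751 in CBP-KO and 974, 1000.3, 775, 1620.3 and 910.4 in WT, and WT_46 was far above the other WT libraries.

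The immunoglobulin assembly genes were the most abundant members per length in WT. Jchain, which joins IgM and IgA into polymers (chromosome 5, 88519809 to 88527891, minus strand), had 52992, 58116 and 47630.4 in p300-KO, 49363, 40414 and 39545 in CBP-KO and 42344, 43801, 40783, 37387 and 46947 in WT. The p300-KO libraries lay above all WT libraries and overlapped CBP-KO, where CBP-KO_1 was high. Jchain rose in p300-KO against WT (log2 fold change 0.32, adjusted p = 0.0366), a call lost without any 1 of p300-KO_18, p300-KO_287, WT_4, WT_7, WT_41 or WT_46 (adjusted p of 0.0534 to 0.155). It was not called in CBP-KO against WT (log2 fold change 0.03, adjusted p = 0.911) or between the knockouts (log2 fold change 0.30, adjusted p = 0.0859). Of the 10 plasma cell markers tested in p300-KO against WT, Sdc1 was the only call by limma. Of these markers 6 had an unadjusted p below 0.05 by limma, and edgeR called 1 and DESeq2 4. Their median log2 fold change was -0.19, and 4 of the 10 were positive. Mzb1, an ER co-chaperone in IgM assembly (chromosome 18, 35647267 to 35649367, minus strand), had 23706, 22581 and 22915 in p300-KO, 23459.7, 23389 and 21639 in CBP-KO and 22205, 21361, 19306, 16112 and 22106 in WT, and WT_46 was lowest. Mzb1 was called in none of the comparisons of p300-KO with WT (log2 fold change 0.20, adjusted p = 0.187), CBP-KO with WT (log2 fold change 0.18, adjusted p = 0.254) and p300-KO with CBP-KO (log2 fold change 0.02, adjusted p = 0.947). The gene model of SPATA24 on the same strand covers 57.2% of the Mzb1 exon bases, so its reads are uncertain.

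Levels were set between genes only per kilobase of exon. On this scale Jchain had 21022 ± 2083 in p300-KO, 17126 ± 2159 in CBP-KO and 16787 ± 1409 in WT, and Mzb1 had 18986 ± 476 in p300-KO, 18789 ± 849 in CBP-KO and 16640 ± 2119 in WT. In WT the difference between these neighbours in the order was smaller than their spread. Calr followed with 16622 ± 1782 in p300-KO, 12259 ± 183 in CBP-KO and 14016 ± 1518 in WT, then Pdia3 with 13074 ± 908 in p300-KO, 10291 ± 338 in CBP-KO and 11332 ± 1168 in WT. The lowest was Sec24d with 166 ± 38.0 in p300-KO, 129 ± 28.4 in CBP-KO and 167 ± 51.8 in WT, below Derl2 with 422 ± 17.6 in p300-KO, 461 ± 17.1 in CBP-KO and 433 ± 20.7 in WT. Libraries were made without keeping strand, so reads of overlapping opposite genes cannot be told apart. Such overlaps covered 16.3% of the exon bases of Spcs1 (Glt8d1), 14.2% of Srp9, 12.8% of Ssr2 and 10.3% of Hsp90b1, the last 3 with pseudogenes.

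Regulators of the unfolded protein response were compared as a list of 16 genes, all tested. Beside them, 11.9% of all tested genes were called in p300-KO against WT, 8.36% in CBP-KO against WT and 9.42% between the knockouts. In p300-KO against WT 4 of the 16 rose and 0 fell (median log2 fold change 0.02). In CBP-KO against WT 0 were called (limma, median 0.03, with 2 at an unadjusted p below 0.05, 0 called by edgeR and 2 by DESeq2). Between p300-KO and CBP-KO 3 were higher and 1 lower (median 0.06). Xbp1, the factor of the IRE1 branch that drives ER expansion in plasma cells, had 17255, 17045 and 16255 in p300-KO, 11914, 12533 and 12411 in CBP-KO and 13410, 12039, 12099, 11261 and 11601 in WT. All p300-KO libraries lay above the rest. Xbp1 rose in p300-KO against WT (log2 fold change 0.48 ± 0.06 SE, adjusted p = 0.000231) and was higher than in CBP-KO (log2 fold change 0.46 ± 0.06 SE, adjusted p = 0.00097), and CBP-KO was not called against WT (log2 fold change 0.03, adjusted p = 0.842). These are counts of all Xbp1 transcripts and do not separate the form spliced by IRE1. Ern1, which encodes IRE1, had 920.4, 1098 and 778 in p300-KO, 642, 645 and 572 in CBP-KO and 456, 432, 496, 520.0 and 509 in WT. The groups did not overlap, with p300-KO highest. It rose in p300-KO against WT (log2 fold change 0.94 ± 0.11 SE, adjusted p = 0.000308) and was higher than in CBP-KO (log2 fold change 0.58, adjusted p = 0.0149), and CBP-KO was not called against WT (log2 fold change 0.36, adjusted p = 0.0735).

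The ER membrane-bound factor Creb3l2, a relative of ATF6 that is cut and released in the Golgi, had 566, 498 and 365 in p300-KO, 118, 177 and 155 in CBP-KO and 115, 145, 122, 165 and 117 in WT. Each p300-KO library lay above all others by more than the range of the rest. Its rise in p300-KO against WT was the largest of the list (log2 fold change 1.82 ± 0.19 SE, adjusted p = 0.000114), and it was higher than in CBP-KO (log2 fold change 1.65, adjusted p = 0.000601). The related Creb3l1 also rose against WT (log2 fold change 0.90, adjusted p = 0.0442), and Bcl2l11, which encodes the death protein BIM, was lower in p300-KO than in CBP-KO (log2 fold change -0.88, adjusted p = 0.00445). Atf6 was not called in p300-KO (log2 fold change -0.14, adjusted p = 0.159) or CBP-KO (log2 fold change -0.09, adjusted p = 0.406) against WT. Its p300-KO libraries (5538 to 5984) still lay below all WT libraries (6168 to 6597), while CBP-KO (5490 to 6489) overlapped both. For Eif2ak3, which encodes the sensor PERK, the values against WT were log2 fold change -0.02, adjusted p = 0.91 in p300-KO and log2 fold change -0.01, adjusted p = 0.976 in CBP-KO. For its downstream factors they were log2 fold change -0.15, adjusted p = 0.206 and log2 fold change 0.03, adjusted p = 0.879 for Atf4, and log2 fold change 0.12, adjusted p = 0.677 and log2 fold change 0.07, adjusted p = 0.852 for Ddit3 (CHOP). None of these 4 was called in p300-KO against CBP-KO, with log2 fold changes of -0.05 for Atf6, -0.01 for Eif2ak3, -0.17 for Atf4 and 0.06 for Ddit3.

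**Figure D5:**
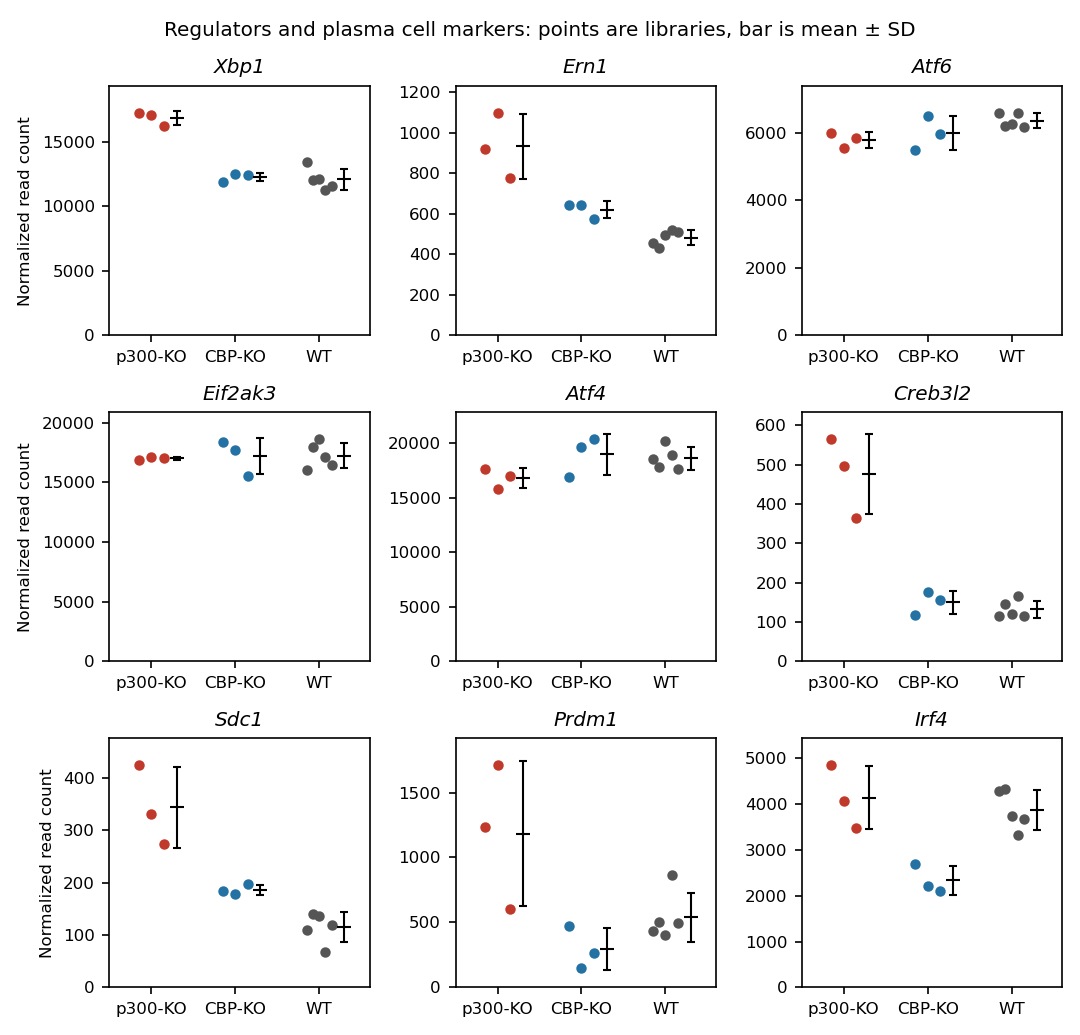
Normalized read counts (y axis, from 0) of 6 regulators of the unfolded protein response and of the plasma cell genes Sdc1, Prdm1 and Irf4 in p300-KO, CBP-KO and WT libraries; each point is a library and the bar is mean ± SD (n = 3, 3 and 5). Xbp1, Ern1, Creb3l2 and Sdc1 lie highest in all 3 p300-KO libraries, Irf4 lies lowest in CBP-KO, and the groups of Eif2ak3 and Atf4 overlap. The p300-KO points of Atf6 lie below all WT points.

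Other genes of the same steps are described by counts and medians. In p300-KO against WT, CBP-KO against WT and p300-KO against CBP-KO, 11.9%, 8.36% and 9.42% of all tested genes were called. Of 18 other folding factors tested, 3 higher and 1 lower were called in p300-KO against WT, 0 higher and 1 lower in CBP-KO against WT and 2 higher and 1 lower in p300-KO against CBP-KO. The oxidases that regenerate the disulfide isomerases moved apart in p300-KO against WT, with Ero1l higher (log2 fold change 0.37, adjusted p = 0.011) and Ero1lb lower (log2 fold change -0.41, adjusted p = 0.00135). Ppib, an ER prolyl isomerase, and Ganab, a glucosidase subunit, also rose there (log2 fold change 0.27, adjusted p = 0.0155 and log2 fold change 0.18, adjusted p = 0.0242). Erp44, which retains unassembled proteins, fell in CBP-KO against WT (log2 fold change -0.39, adjusted p = 0.00428). Between p300-KO and CBP-KO, Ppib (log2 fold change 0.27, adjusted p = 0.0319) and Sdf4 (log2 fold change 0.20, adjusted p = 0.0272) were higher and Ero1lb was lower (log2 fold change -0.30, adjusted p = 0.0176). The medians of this list were 0.09, -0.07 and 0.14 in p300-KO against WT, CBP-KO against WT and p300-KO against CBP-KO.

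Of 12 other degradation factors, 4 higher and 1 lower were called in p300-KO against WT (median 0.11) and 0 in CBP-KO against WT (limma, with 1 at an unadjusted p below 0.05, 0 called by edgeR and 0 by DESeq2) or in p300-KO against CBP-KO (limma, with 4 at an unadjusted p below 0.05, 1 called by edgeR and 2 by DESeq2). Those that rose included Selenos (log2 fold change 0.35, adjusted p = 0.00616) and Os9 (log2 fold change 0.28, adjusted p = 0.0149), which belong to or feed the HRD1 complex, and Ubxn4 (log2 fold change 0.17). Ube2j1, an ER ubiquitin-conjugating enzyme, fell (log2 fold change -0.30, adjusted p = 0.0371). Of 10 other translocation and targeting genes, Sec61a2 rose in p300-KO against WT (log2 fold change 0.40, adjusted p = 0.048) and Tram2 rose in CBP-KO against WT (log2 fold change 0.41, adjusted p = 0.00879), with 0 called between the knockouts (limma, with 5 at an unadjusted p below 0.05, 0 called by edgeR and 2 by DESeq2). Of 10 other glycosylation genes, Magt1, an oxidoreductase subunit that works with STT3B, rose in p300-KO against WT (log2 fold change 0.26, adjusted p = 0.0241). Its alternative subunit Tusc3 fell in CBP-KO against WT (log2 fold change -0.49, adjusted p = 0.0322). Between p300-KO and CBP-KO, Krtcap2 and Magt1 were higher (log2 fold changes 0.33 and 0.26).

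Of 24 other export and retrieval genes, 5 higher and 0 lower were called in p300-KO against WT (median 0.10), 0 higher and 0 lower in CBP-KO against WT (median 0.03) and 3 higher and 0 lower in p300-KO against CBP-KO (median 0.07). The count in CBP-KO is from limma, with 3 at an unadjusted p below 0.05, 0 called by edgeR and 0 by DESeq2. The Golgi tether Golgb1 (log2 fold change 0.36, adjusted p = 0.0142) and the cargo receptor subunit Mcfd2 (log2 fold change 0.39, adjusted p = 0.0223) rose in p300-KO against WT, as did the vesicle coat genes Sec31a and Copa and the exit-site scaffold Sec16a (log2 fold changes 0.22, 0.19 and 0.18). Between p300-KO and CBP-KO, Golgb1 (log2 fold change 0.55, adjusted p = 0.00305), Mcfd2 (log2 fold change 0.41, adjusted p = 0.0337) and the cargo receptor Tmed10 (log2 fold change 0.27, adjusted p = 0.0459) were higher.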

How the data were processed

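RNA sequencing values came from 1 deposited table with a column for each of the 11 libraries, grouped by genotype label. Per the labels' protocols, total RNA was made into libraries with a TruSeq RNA v2 kit, which does not keep strand. Per the submitters' processing notes, CASAVA 1.8, HISAT2, featureCounts, DESeq2 and the build mm10 were used; settings are not given there. In the deposited table the signal is a read count per gene, divided by the authors by a size factor for its library. Whole reads were recovered for 100% of values (tolerance 1e-06) and summed to give depth. Of 48593 genes, 22043 held 0 in every library; the test covered the 16515 whose mean reached 10.

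The test was limma 3.58.1 with a mean-dependent trend on log2(value + 1), a scale that understates changes of low genes, in a single fit of all 11 libraries by group, without covariates. It was two-sided, and p-values were adjusted by Benjamini-Hochberg over all tested genes with a threshold of 0.05. Where no tool is named, an adjusted p is limma's. Crebbp and Ep300 were also compared by exact permutation. The 24 alternatives changed pseudocount, filter, normalization, variance model, libraries and covariate, or ran edgeR 4.0.16 and DESeq2 1.42.0 on recovered reads. The procedure was tested on simulated data. Positions and exon lengths are from GENCODE M21 (GRCm38, the same build as mm10), and promoters from RefSeq. R 4.3.3 and Python 3.11.15 were used. Values of a few listed genes are not reported here.

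The member list was set by gene symbol and uses no measured value in its rule, but it and the other lists were chosen with earlier results of these data known. In each comparison, library values are given for up to 12 called members with the smallest p and for Hspa5, Hsp90b1, Mzb1 and Jchain. Of each pathway list up to 5 called genes are named per comparison. Not all of the 5 called other degradation factors are named. Xbp1, Atf6, Ern1, Eif2ak3, Atf4 and Ddit3 are always named.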

Additional observations from a re-analysis of the deposited data

Results flagged for a closer look

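In 12 of the 52 members 1 WT library stood far from the other 4, by a gap larger than Dixon's 95% critical value of 0.71 of the group's range. About 1 in 20 groups would be marked by chance, and the members are not independent of each other. WT_4 was the library in 10 of the 12. It was high for Dnajb11 (10742, others 9030.4 to 9379.7), Manf (6380.1, others 5118 to 5307), P4hb (20101, others 16476 to 17279), Pdia3 (42019.5, others 33145 to 34739) and Rpn1 (18458, others 15199 to 15936). It was also high for Srpr (9196, others 8153 to 8447), Sec61a1 (12779.8, others 11385 to 11757), Sec61b (5400.0, others 4599.7 to 4756) and Ssr4 (2971, others 2643 to 2724), and low for Edem1 (25302, others 27480.2 to 28337). WT_41 was low for Ssr3 (11202, others 12774 to 13392). WT_46 was high for Sec24d (1620.3, others 775 to 1000.3). Without WT_4, 18 members were higher in p300-KO than in WT, against 13 with it. The knockout groups, with 3 libraries each, were not examined in this way.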

How the results depend on the processing

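No called member changed sign under any of the 24 alternatives. In p300-KO against WT (13 higher, 1 lower) the number higher was 8 with every gene above a mean of 0, 7 in limma without a trend, 21 with library weights, 8 with only the groups compared and 6 without WT_46 and p300-KO_18, and the number lower was 2 with library weights. In CBP-KO against WT (1 higher, 5 lower) there were 0 higher and 3 lower without a trend, and 3 higher and 9 lower with library weights. In p300-KO against CBP-KO (19 higher, 1 lower) the number higher was 11 without a trend, 32 with library weights and 8 without WT_46 and p300-KO_18, and the number lower was 2 with a mean of at least 50, with library weights and with DESeq2. Leaving out each library in turn gave 5 to 18 higher and 1 lower each time in p300-KO against WT, 0 to 1 and 2 to 6 in CBP-KO against WT, and 7 to 23 and 1 to 2 in p300-KO against CBP-KO. The median log2 fold change ranged over 0.10 to 0.16, -0.07 to -0.01 and 0.19 to 0.24 in the same order of comparisons. edgeR called 13 and 1, 1 and 5, and 20 and 1 members higher and lower in that order, and DESeq2 15 and 1, 1 and 7, and 24 and 2. Leaving libraries out leaves fewer samples; for the other settings the cause was not tested. No paired analysis was possible because no replicate number in the labels occurs in more than 1 group. The shallowest library held 53550726 reads and the member with the lowest count had a mean of 989. The comparisons rest on 3 to 5 libraries per group.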

Other observations

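Targets of the PERK and ATF4 branch of the stress response did not share 1 direction in p300-KO. Among all tested genes, 11.9% were called in p300-KO against WT, 8.36% in CBP-KO against WT and 9.42% between the knockouts. Of 14 listed genes 11 were tested, and against WT 2 higher and 3 lower were called in p300-KO (median log2 fold change 0.03), 0 higher and 1 lower in CBP-KO (median 0.00) and 1 higher and 0 lower in p300-KO against CBP-KO (median 0.06). Sesn2, a sestrin that restrains mTORC1, had 1135, 1238 and 1164 in p300-KO, 886, 1046 and 873 in CBP-KO and 809, 740.1, 824, 919 and 825 in WT, and every p300-KO library lay above all others. It rose in p300-KO against WT (log2 fold change 0.52, adjusted p = 0.00278). Ddit4, another inhibitor of mTORC1, had 1601, 1959 and 1419 in p300-KO, 1142, 1227 and 1036 in CBP-KO and 1263, 1258, 1462, 1119 and 1135 in WT; it rose against WT (log2 fold change 0.41, adjusted p = 0.0366) and was higher than in CBP-KO (log2 fold change 0.54, adjusted p = 0.0202). Atf3, an immediate early stress factor, fell in p300-KO (log2 fold change -1.42, adjusted p = 0.0125) and in CBP-KO (log2 fold change -1.18, adjusted p = 0.038) against WT, with 29.1, 25.6 and 55 in p300-KO, 53.1, 26.6 and 48.0 in CBP-KO and 135, 105, 77.8, 90.6 and 73.2 in WT. Psat1, of serine synthesis, and Cebpb fell in p300-KO against WT (log2 fold changes -0.24 and -0.39).

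Of 11 tested cytosolic heat shock genes, Bag3, a co-chaperone of HSP70, was the only call in p300-KO against WT (log2 fold change 0.81, adjusted p = 0.0319). It had 455, 460.2 and 424 in p300-KO, 239, 336 and 425 in CBP-KO and 303, 188, 274, 345 and 193 in WT, and all p300-KO libraries lay above all WT libraries but not above CBP-KO_55. In CBP-KO against WT 0 of the 11 were called (limma, with 0 at an unadjusted p below 0.05, 0 called by edgeR and 0 by DESeq2), as were 0 in p300-KO against CBP-KO (limma, with 2 at an unadjusted p below 0.05, 0 called by edgeR and 2 by DESeq2). The list's medians were 0.20 in p300-KO against WT, 0.04 in CBP-KO against WT and 0.14 in p300-KO against CBP-KO. Among all tested genes 11.9%, 8.36% and 9.42% were called in the same comparisons.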
